A study of Mus musculus with 16 samples.

Results

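Oxidative phosphorylation makes most of the ATP of a resting cell in the inner mitochondrial membrane. Complex I (NADH dehydrogenase), complex II (succinate dehydrogenase), complex III (cytochrome bc1) and complex IV (cytochrome c oxidase) pass electrons to oxygen and, except for complex II, pump protons. ATP synthase (complex V) uses the resulting gradient. Most subunits are encoded in the nucleus and imported, a small set is encoded by the mitochondrial genome, and several complex IV subunits exist as paired isoforms of which one is widely expressed and the other restricted to certain tissues, such as testis or striated muscle. Naive embryonic stem cells are known to use both respiration and glycolysis, and cells of the later epiblast to rely more on glycolysis.

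The 108 protein-coding genes described here were chosen by symbol from the 35975 genes of the tables. They comprise the Nduf genes (subunits and assembly factors of complex I), Sdha to Sdhd, the Uqcr genes and Cyc1, the Cox4 to Cox8 genes, the Atp5 genes, and the mitochondrial Nd, Co, Atp and Cytb genes. Of these, 95 are nuclear and 13 mitochondrially encoded. After the filter on low counts 93 nuclear and all 13 mitochondrial genes were tested. The exceptions were Cox8b, a muscle isoform with at most 6 estimated counts in any library, and a second entry named Atp5o with at most 2.03.

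The RNA came from the mouse embryonic stem cell line E14 (ES-E14TG2a), as WT cells and as cells labelled TKO, an abbreviation that the labels do not expand and that was taken to mean loss of Dnmt1, Dnmt3a and Dnmt3b. Day 0 cells of both genotypes grew on fibronectin in N2B27 with vitamin C, LIF and 2 inhibitors, of MEK and of Gsk3. Days 2, 4 and 7 followed a change to Fgf2, Activin A and 1% knock-out serum, which leads to epiblast-like cells, with an added split at day 4. Each of the 8 groups held 2 libraries named biological replicates, so that p-values measure the spread between these samples, which may be technical where they were not separate cultures. The number of TKO clones was not given in the sources used here.

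Library totals lay between 33168178 and 58197630 estimated counts. The summed RNA of the genes taken to be targeted was lower in TKO libraries on each day but persisted. On day 2 it stood at 1032 to 1100 CPM (counts scaled by effective library size) in TKO and at 3049 to 3312 CPM in WT libraries. Protein was not measured. Dnmt1 lay at 310 to 545 CPM in WT and at 36.2 to 55.9 CPM in TKO libraries. Dnmt3a stood at 187 and 33.9 CPM in the 2 TKO day 4 libraries, against 297 and 380.1 CPM in WT day 4. The 187 CPM of the library labelled TKO day 4 replicate 1 are near the 199.7 and 201 CPM of WT day 7. For Dnmt3a they go against its label as taken here, while its Dnmt1 lay within the TKO range. The main day 4 differences between genotypes are given without this library too. All 9 naive markers fell and all 8 formative markers rose between day 0 and day 7 in each genotype, the summed naive level from between 3355 and 3980 CPM to between 235 and 261 CPM. At day 7, 5 of 6 tested mesoderm markers were higher in TKO cells (summed level 753 to 778 CPM against 118 to 146 CPM), as were 3 of 7 fibroblast markers (70.9 to 72.8 CPM against 30.8 to 40.4 CPM) and 2 of 7 endoderm markers, with 2 lower. Over all genes 23.4% were higher and 21.1% lower in TKO cells on that day, and the endoderm counts lie near these shares. The mesoderm marker Hand1 was close to 0 in each day 7 library, at 0.0965 to 0.546 CPM. The part of these cells in the day 7 results below was not tested, and in bulk RNA a change in the share of a cell type and a change of RNA per cell cannot be told apart.

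Both WT day 0 libraries differed from each other in a way that touches nearly all of these genes. Nuclear oxidative phosphorylation transcripts are short, with a median effective length of 521 bases against 2085 bases over all genes tested. Genes with effective lengths of 300 to 600 bases were higher by a median of 0.50 on the log2 scale in WT day 0 replicate 1 than in replicate 2, and genes over 4000 bases were lower, at -0.34. Of the 93 nuclear genes tested, 92 were higher in replicate 1, by a median of 0.50. In WT day 2 the order was opposite, with a median of -0.35 and 2 of 93 genes higher in replicate 1. In the other 6 groups the median difference lay between -0.05 and 0.07. The main counts and gene values that use WT day 0 are given also without its replicate 1, and with an offset that removes from each library its trend with transcript length.

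**Figure D1:**
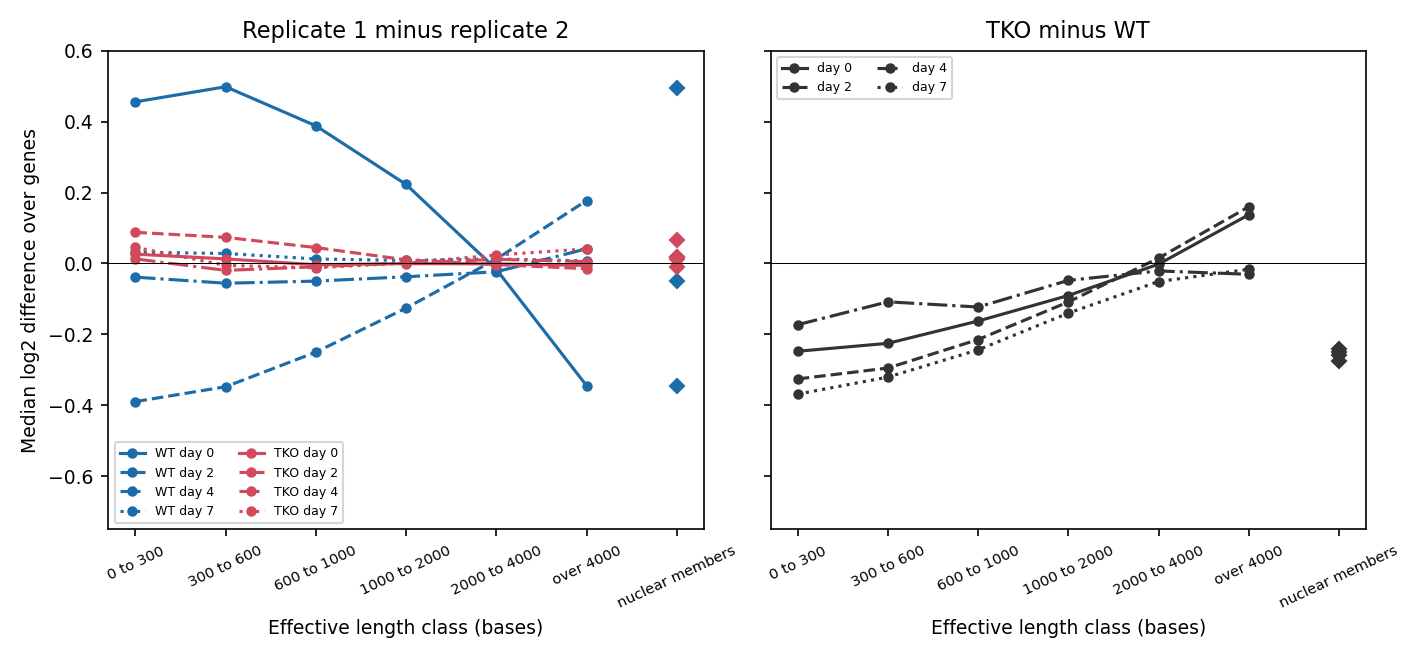
Median log2 difference in CPM over genes of each effective length class (circles, x axis in bases) and over the nuclear oxidative phosphorylation genes (diamonds), between the 2 replicates of each group (left) and between TKO and WT on each day (right). WT day 0 falls from 0.50 at 300 to 600 bases to -0.34 over 4000 bases, and the nuclear genes lie near the classes of their own length.

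Per unit of length, mitochondrially encoded transcripts were the more abundant. In WT day 0 cells the 13 mitochondrial genes together reached 73192 ± 12895 TPM (transcript abundance scaled for length and depth, mean ± SD, n = 2 here and for every level below) and the 95 nuclear genes 26375 ± 3442 TPM. Among nuclear genes Atp5b, the catalytic beta subunit of ATP synthase, was at 1672 ± 220 TPM and Cox4i1, the common complex IV subunit 4, at 1101 ± 160 TPM. At the low end were restricted complex IV isoforms, with Cox6a2 at 1.04 ± 0.16 TPM and Cox4i2 at 0.73 ± 0.12 TPM. The core subunits of complex I summed to 922 ± 89 TPM, its accessory subunits to 6415 ± 908 TPM and its assembly factors to 229 ± 20 TPM. Complex II reached 816 ± 6.1 TPM, complex III 3215 ± 372 TPM, the common complex IV subunits 6452 ± 938 TPM and ATP synthase 7817 ± 1075 TPM.

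Between day 0 and day 7 the share of all counts held by these genes was lower in both genotypes. The nuclear genes took 1.39% and 1.09% of the counts of the WT day 0 libraries and 0.90% of each WT day 7 library. In TKO cells the nuclear share was 1.12% and 1.11% on day 0, and 0.80% and 0.82% on day 7. All 4 day 7 libraries thus lay below all 4 day 0 libraries, with the first WT day 0 library far above the second. The mitochondrial share stood at 3.67% and 3.90% in WT day 0 and at 2.24% and 2.11% in WT day 7 cells. In TKO cells it stood at 3.54% and 3.53% on day 0, and at 2.60% and 2.52% on day 7. The day 7 ranges of the genotypes did not overlap for either share: TKO cells had the lower nuclear and the higher mitochondrial share. As a share of TPM the mitochondrial fall in TKO cells was smaller, from 7.47% and 7.61% on day 0 to 7.01% and 6.70% on day 7. In TPM the complex III gene mt-Cytb rose there, from 4453 ± 3.2 to 5363 ± 3.8. The mitochondrial complex IV genes fell, from a summed 29047 ± 34 to 20363 ± 312 TPM.

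**Figure D2:**
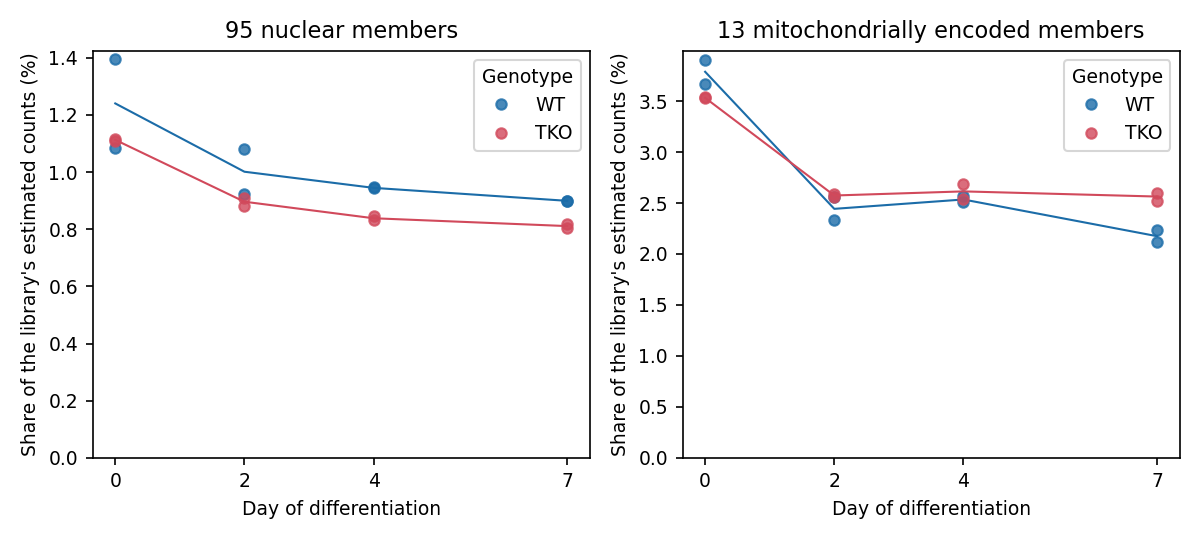
Share of each library's estimated counts (y axis, %) on the 95 nuclear (left) and 13 mitochondrially encoded (right) oxidative phosphorylation genes against day of differentiation. Points are libraries, 2 per genotype and day, and lines join their means. The nuclear share of WT day 0 is split into 1.39% and 1.09%, and on day 7 TKO libraries lie below WT for the nuclear and above WT for the mitochondrial genes.

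In WT cells 1 nuclear gene rose and 68 of 93 fell from day 0 to day 7, with a median log2 fold change of -0.52 against -0.03 over all genes (edgeR quasi-likelihood test, Benjamini-Hochberg adjusted p under 0.05, which is what "called" means throughout). Over all genes 66.2% were called in this comparison, 32.9% higher and 33.2% lower. Without WT day 0 replicate 1, 3 nuclear genes were higher and 43 lower with a median of -0.25, and 44 of these calls were shared. With the length-trend offset 15 were higher and 40 lower, with a median of -0.13. In TKO cells, where the day 0 replicates lay close together, 5 rose and 64 fell with a median of -0.50, while 67.8% of all genes were called, 36.1% up and 31.7% down. With the offset these became 26 higher and 45 lower, with a median of -0.17.

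Called falls to day 7 in WT cells occurred in every role group, in numbers that depended on WT day 0 replicate 1 and on transcript length. They were 5 of 7 core subunits of complex I, 21 of 31 accessory subunits, 4 of 4 complex II genes, 8 of 9 complex III genes, 11 of 11 common complex IV subunits and 12 of 17 tested ATP synthase genes. In the same order they were 5, 13, 1, 4, 9 and 5 without WT day 0 replicate 1, and with the length-trend offset 5, 12, 1, 4, 6 and 6. In TKO cells they were 5, 17, 4, 8, 9 and 15, and with the offset 5, 11, 3, 7, 7 and 8. Of the 8 assembly factors of complex I, 4 fell in each genotype, 1 rose in WT cells and 2 rose in TKO cells (with the offset 3 fell in each, 3 rose in WT and 4 in TKO cells). On days 2 and 4 the falls were fewer. On day 2, 34 nuclear genes fell and 5 rose in WT cells (61.5% of all genes called), and 38 fell and 3 rose in TKO cells (57% of all genes called; 24 calls in all without TKO day 2 replicate 2). On day 4, 51 fell and 2 rose in WT cells (63.2% called), and 49 fell and 2 rose in TKO cells (63% called). Without WT day 0 replicate 1 the WT counts were 20 lower and 17 higher on day 2, and 30 lower and 9 higher on day 4. On day 2, 71 were called without WT day 0 replicate 2.

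**Figure D3:**
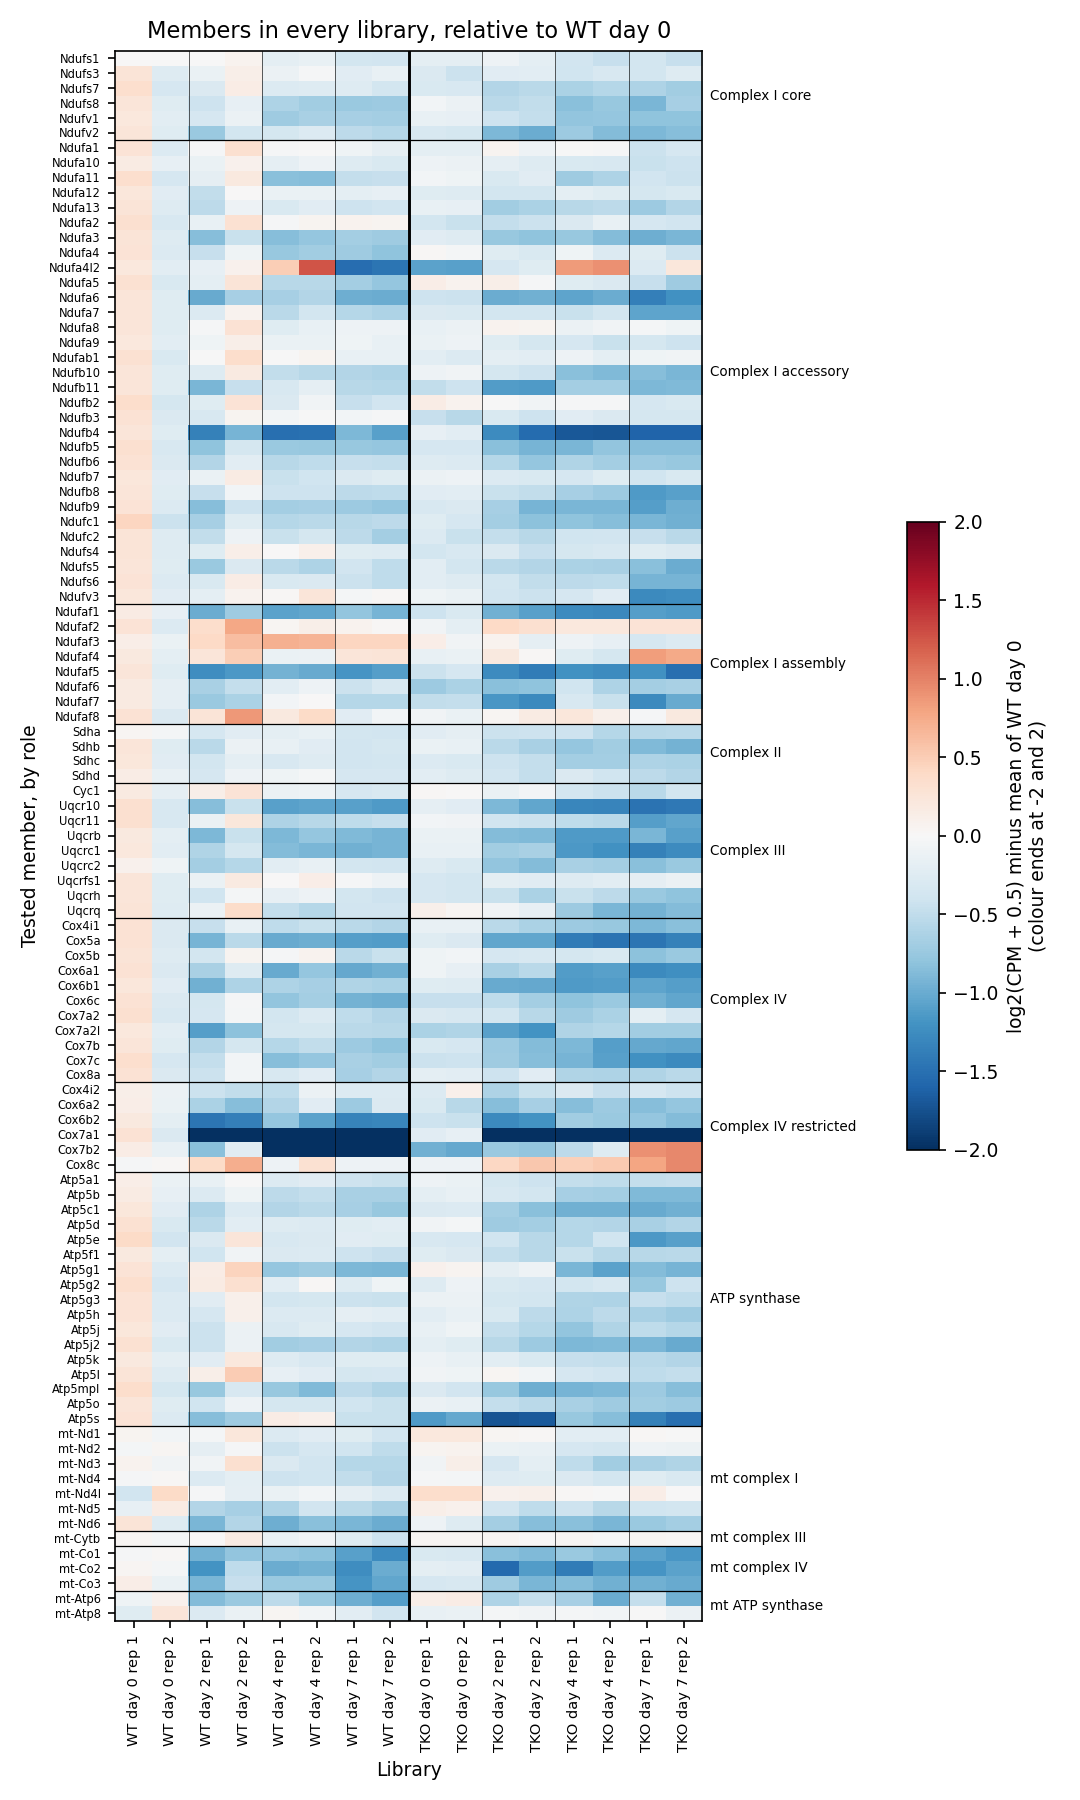
Tested oxidative phosphorylation genes (rows, grouped by role, with 1 gene not shown) in the 16 libraries (columns), coloured by log2 CPM relative to the mean of the WT day 0 libraries, blue lower and red higher, with the colour ending at 2 on either side. Most rows turn blue from day 2 on in both genotypes, and the WT day 0 replicates differ in shade in nearly every nuclear row.

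Uqcr10, a small subunit of complex III, had 166 and 107 CPM in the WT day 0 libraries and 62.5 and 60.5 CPM in those of WT day 7. TKO cells had 117 and 114 CPM on day 0, and 47.4 and 48.8 CPM on day 7. No day 7 library reached a day 0 library of its genotype, and the log2 fold changes were -1.15 ± 0.17 (SE) in WT cells (edgeR adjusted p = 3.76e-05) and -1.26 ± 0.17 in TKO cells (adjusted p = 1.67e-05). For Uqcr10 the length-trend offset gave -0.53 and -0.56, and the WT change without WT day 0 replicate 1 was -0.79. Uqcrc1, a core protein of complex III, went from 187 and 138 CPM to 82.1 and 84.0 CPM in WT cells, and from 145 and 145 CPM to 62.8 and 66.8 CPM in TKO cells. Its ranges on day 0 and day 7 were separate in each genotype, with fold changes of -0.97 ± 0.12 (edgeR adjusted p = 5.53e-06) and -1.16 ± 0.12 (adjusted p = 9.59e-07), or -0.82 and -1.15 with the offset and -0.73 in WT cells without that library. Cox5a, a matrix-side subunit of complex IV, had 227 and 151 CPM in WT day 0 cells and 85.9 and 84.6 CPM in WT day 7 cells, a change of -1.15 ± 0.16 (edgeR adjusted p = 1.96e-05). In TKO cells Cox5a went from 156 and 151 CPM to 67.0 and 72.0 CPM, a change of -1.14 ± 0.16. The offset reduced the Cox5a changes to -0.69 and -0.68, and without that library the WT change was -0.82.

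For complex I, Ndufv1, the core subunit that binds NADH, went from 198 and 147 CPM to 108 and 106 CPM in WT cells, a fall by 0.69 ± 0.11 on the log2 scale (edgeR adjusted p = 8.84e-05), or a change of -0.46 without WT day 0 replicate 1 and of -0.51 with the length-trend offset. In TKO cells it went from 154 and 152 CPM to 97.1 and 98.0 CPM. Both day 7 pairs were below both day 0 pairs. The assembly factor Ndufaf5, a hydroxylase of the core subunit Ndufs7, was lower by day 2 and stayed there. It had 26.1 and 18.6 CPM in WT day 0, 9.08 and 9.65 CPM in day 2, and 9.49 and 10.03 CPM in day 7 cells, with a day 7 change of -1.19 ± 0.15 (edgeR adjusted p = 8.29e-06), or -0.93 both without that library and with the offset. TKO cells had 16.3 and 17.3 CPM on day 0, and 9.20 and 7.41 CPM on day 7 (-1.01 ± 0.15).

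The most abundant nuclear member by CPM, Atp5b, had 2333 and 1871 CPM in WT day 0 cells and 1328 and 1330 CPM in WT day 7 cells, a change of -0.66 ± 0.10 (edgeR adjusted p = 3.98e-05), or -0.49 without WT day 0 replicate 1 and -0.56 with the length-trend offset. TKO cells had 1832 and 1875 CPM on day 0, and 1131 and 1129 CPM on day 7, a change of -0.71 ± 0.10. Atp5g1, 1 of the genes for the c-ring of ATP synthase, changed by -0.94 ± 0.14 in WT and by -0.97 ± 0.14 in TKO cells, which the offset reduced to -0.51 and -0.56, and the WT change was -0.63 without that library. Complex II changed the least of the 5 complexes in the summed TPM of their common nuclear subunits. Its summed level was 816 ± 6.1 TPM on day 0 and 787 ± 4.6 TPM on day 7 in WT cells, and 807 ± 3.4 TPM and 736 ± 2.9 TPM in TKO cells. Sdha, its flavoprotein, had 329 and 314 CPM on day 0, and 249 and 246 CPM on day 7 in WT cells, which do not overlap (-0.38 ± 0.07, edgeR adjusted p = 0.000349). Of the 4 genes Sdha alone was still called in WT cells without WT day 0 replicate 1 (-0.34), and likewise with the length-trend offset (-0.45). With the offset Sdhc, a membrane anchor, turned to a fitted change of 0.05 in WT and of 0.10 in TKO cells from -0.40 and -0.34.

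Mitochondrially encoded genes fell over the same days. In WT cells 7 of 13 were lower on day 2, 10 on day 4 and 12 on day 7, against 28.6%, 31.2% and 33.2% of all genes, and none was higher. Leaving out WT day 0 replicate 1 gave 9, 10 and 13 lower. In TKO cells 9, 10 and 9 were lower, against 25.5%, 28.6% and 31.7% of all genes, and none higher. The median log2 fold change on day 7 was -0.57 in WT and -0.48 in TKO cells, and with the length-trend offset -0.35 with 7 lower in WT, and 0.03 with 4 lower and 2 higher in TKO cells. In WT cells the 3 complex IV genes had the largest changes, and in TKO cells mt-Co2 (-0.93 ± 0.19) and mt-Atp6 (-0.83 ± 0.15) had. mt-Co1, the catalytic subunit that holds the oxygen-binding site, had 17862 and 18345 CPM in WT day 0, 9432 and 10493 CPM in day 2, 10456 and 10279 CPM in day 4, and 8488 and 7602 CPM in day 7 libraries. Its WT level thus dropped between day 0 and day 2, with a day 7 change of -1.17 ± 0.09 (edgeR adjusted p = 6.03e-08). In TKO cells mt-Co1 had 14609 and 14564 CPM on day 0, and 8595 and 8059 CPM on day 7 (-0.81 ± 0.09, edgeR adjusted p = 2.45e-06).

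The other WT falls to day 7 among mitochondrial genes were -1.11 ± 0.19 for mt-Co2, -1.11 ± 0.13 for mt-Co3, -1.04 ± 0.15 for mt-Atp6 and -0.97 ± 0.15 for mt-Nd6. The complex I genes mt-Nd1 to mt-Nd5 changed by between -0.31 and -0.61, mt-Cytb, the complex III gene, by -0.32 ± 0.08, and mt-Atp8 by -0.32 ± 0.12 (edgeR adjusted p = 0.0352), which the length-trend offset turned to 0.24. mt-Nd4l, at -0.28 ± 0.17 (edgeR adjusted p = 0.162), was the 1 that was not called, although it was without WT day 0 replicate 1 (-0.60). mt-Nd4l overlaps mt-Nd4 and mt-Atp8 overlaps mt-Atp6 in the mitochondrial genome, mt-Nd6 lies opposite mt-Nd5, and whether counting used the strand is not given in the sources used here, so that these values are uncertain where reads could be shared, which was not measured. Nuclear copies of mitochondrial DNA, and the 7 annotated pseudogenes named after 5 of the nuclear genes, could also share reads with their parents. With the counts of these pseudogenes added to their parents, all 486 results for named genes kept their sign and call status. Nuclear copies of mitochondrial DNA were not added in this way.

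TKO and WT cells were compared on each day. On day 0, 11 of 93 nuclear genes were lower in TKO cells and 0 higher, with a median log2 fold change of -0.24. The background over all genes was 12.7% called, 4.52% up and 8.16% down. The 37 genes whose TKO libraries both lay below both WT libraries made up 39.8% of the nuclear genes tested, against 29.6% of all genes. Without WT day 0 replicate 1 the median was 0.02 and 3 genes remained called: Ndufaf6, Cox7a2l and Atp5s. Without WT day 0 replicate 2 there were 71, and without TKO replicate 1 or 2 there were 2 or 3. Ndufaf6 is an assembly factor of complex I and Cox7a2l a factor that joins complexes III and IV. Cox7a2l had 213 and 160.1 CPM in WT and 118 and 121 CPM in TKO day 0 libraries, without overlap, and a change of -0.64 ± 0.11 (edgeR adjusted p = 0.00326), or of -0.42 without that library (adjusted p = 0.014). Of the mitochondrial genes, mt-Co1 alone was called, at -0.31 ± 0.09 (edgeR adjusted p = 0.0369), a call that was lost without WT day 0 replicate 1. With the length-trend offset Ndufaf6 (-0.54), Cox7a2l (-0.48) and Atp5s (-1.03), among others, stayed called as lower. Atp5g1 (0.25), Ndufa5 (0.30) and Uqcrq (0.27) were then called as higher. The offset also removed the call of mt-Co1 (-0.20), and mt-Nd1 became called as higher (0.36).

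On day 2, 4 nuclear genes were lower in TKO cells and 0 higher, while 13.4% of all genes were called, 7.91% up and 5.52% down. The 4 were Atp5s, the coupling factor B homologue of ATP synthase, the complex I assembly factors Ndufaf3 and Ndufaf7, and Atp5a1, the alpha subunit of ATP synthase (-0.30). The median was -0.27, and 61 genes (65.6%) had both TKO libraries below both WT libraries, against 31.9% of all genes. That background is not matched for transcript length, along which the WT day 2 libraries also differed. With the length-trend offset the 4 stayed called, at -0.85 for Atp5s, -0.45 for Ndufaf3, -0.42 for Ndufaf7 and -0.31 for Atp5a1. Among the others Cox4i1 went from -0.29 to -0.05 and Atp5j from -0.25 to -0.005. Ndufa9 went from -0.31 to -0.20 and became called as lower (edgeR adjusted p = 0.0394), and Ndufa8 went from -0.08 to 0.15. Cox6b2 (0.45), Ndufa5 (0.28) and Ndufa4 (0.24) became called as higher with the offset. Without WT day 2 replicate 1 the number lower was 24, without WT replicate 2 it was 1, and without TKO replicate 1 or 2 it was 2 or 1. Of the mitochondrial genes mt-Nd3 was lower, at -0.41 ± 0.12 (edgeR adjusted p = 0.0331). This call was lost with the length-trend offset (-0.12, edgeR adjusted p = 0.388) and with the deposited effective lengths as offset. Leaving out 1 library at a time gave 0 to 2 mitochondrial calls on that day.

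On day 4, where the WT libraries lay close together for these genes, 18 nuclear genes were lower and 2 higher in TKO cells, with 28.9% of all genes called, 17.8% higher and 11.1% lower. The median was -0.25 against 0.01 over all genes, and with the length-trend offset -0.21 with 48 lower and 7 higher. Each of the 4 libraries of that day, when left out, brought the calls down to between 8 and 11. Without TKO day 4 replicate 1 they were 9 lower and 1 higher, 9 of them shared with the first set, and the median was -0.26. All 4 genes of complex II were lower: Sdha by -0.31 ± 0.07, Sdhb by -0.55 ± 0.14, Sdhc by -0.40 ± 0.11 and Sdhd by -0.28 ± 0.10 (edgeR adjusted p = 0.00496, 0.0107, 0.0177 and 0.048). Without that library Sdha stayed called (-0.40, adjusted p = 0.00338), and Sdhb, Sdhc and Sdhd had edgeR adjusted p = 0.0567, 0.0599 and 0.0614. Sdhb, the iron-sulphur subunit, had 97.4 and 93.0 CPM in WT and 63.4 and 67.1 CPM in TKO libraries, which do not overlap. The genes that were higher were Cox7b2, also without that library, and Ndufa4 (0.45 without it, adjusted p = 0.0975). Atp5s (-1.06) and Ndufaf3 (-0.89) also stayed called without it. No mitochondrial gene was called on day 4 by edgeR or DESeq2, and 1 had an unadjusted p under 0.05.

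On day 7, 20 nuclear genes were lower and 6 higher in TKO cells, while 44.5% of all genes were called, 23.4% up and 21.1% down. The median was -0.26, or -0.11 with the length-trend offset, under which 32 were lower and 21 higher. In 71 of 93 genes both TKO libraries lay below both WT libraries, against 39.7% of all genes. Of the 9 complex III genes 5 were lower, among them Uqcrc2 (-0.42 ± 0.08), Uqcr11 (-0.59 ± 0.16) and Uqcrq (-0.52 ± 0.16). None of the 7 core subunits of complex I was called on day 7, and 6 of the 31 accessory subunits were lower. The called falls of the common complex IV subunits were Cox6b1 (-0.47 ± 0.13) and Cox7c (-0.57 ± 0.18). Those of ATP synthase were Atp5s, Atp5e (-0.90 ± 0.21), its epsilon subunit, and Atp5h. With the length-trend offset the genes named so far for day 7 stayed called, at -0.26 for Uqcr11, -0.29 for Uqcrq, -0.19 for Cox6b1, -0.30 for Cox7c, -0.57 for Atp5e and -0.26 for Atp5h. The calls of Uqcrh in complex III (-0.11) and of the accessory subunit Ndufs5 (-0.21) were lost with it. Core subunits of complex I became called as lower, among them Ndufv2 (-0.26). Short transcripts as a class were also lower in TKO cells on day 7, at -0.32 for effective lengths of 300 to 600 bases, and their part in these calls was not tested beyond that offset.

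**Figure D4:**
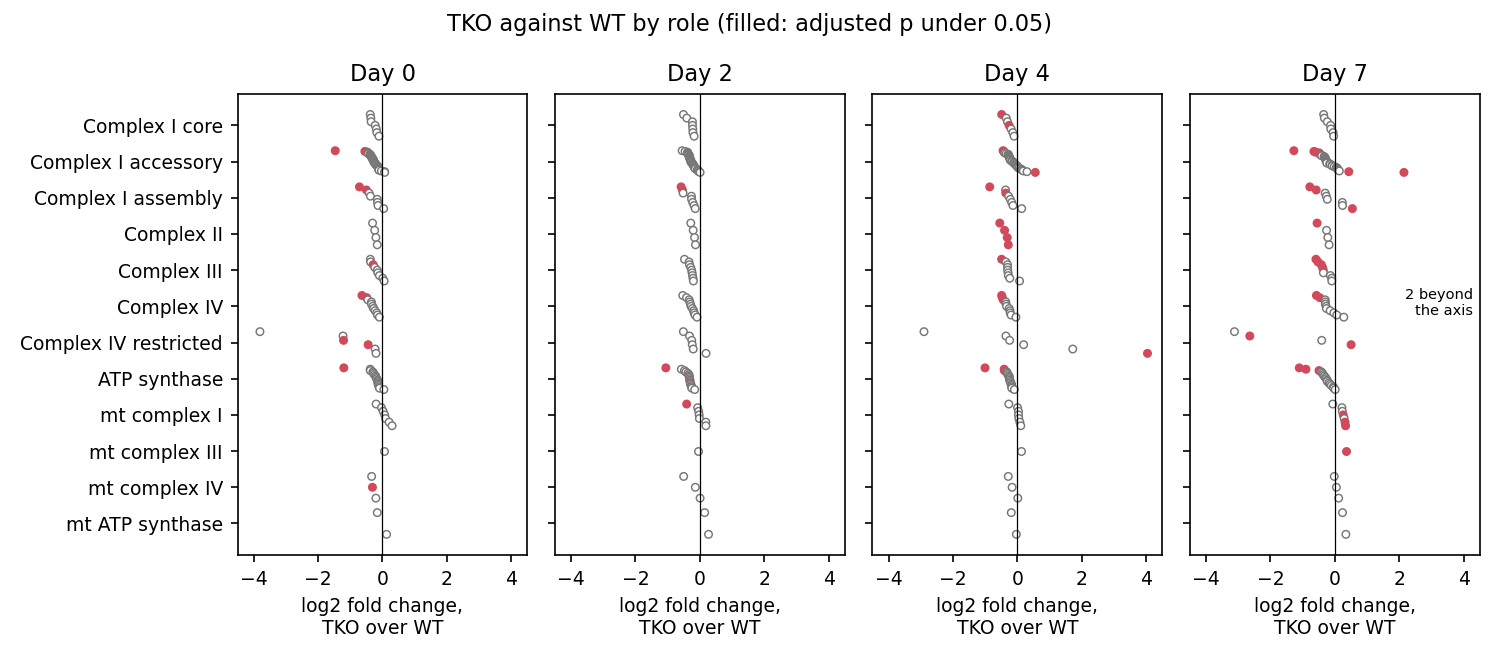
Log2 fold change of TKO over WT (x axis) for each tested gene by role (y axis) on days 0, 2, 4 and 7, filled where called (adjusted p under 0.05). Most nuclear genes lie a little to the left of 0 on each day, and on day 7 Cox7b2 and Cox8c lie to the right beyond the axis.

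In a few nuclear genes the genotypes differed by far more than the median. Ndufv3, an accessory subunit of the NADH-binding module of complex I, had 58.3 and 42.7 CPM in WT day 0, 43.4 and 52.6 CPM in day 2, 50.8 and 58.9 CPM in day 4, and 48.7 and 50.6 CPM in day 7 libraries. In TKO cells the pairs were 46.8 and 45.2, 38.0 and 36.8, 39.5 and 42.7, and 20.4 and 20.8 CPM. The day 7 TKO libraries were the lowest of all 16, at less than any WT library, and the TKO against WT change on day 7 was -1.27 ± 0.13 (edgeR adjusted p = 5.86e-06). The change of this difference from day 0 to day 7 was -1.14 ± 0.19 (adjusted p = 0.000514). Atp5s was lower in TKO cells on every day. Its WT pairs were 10.7 and 7.23, 4.67 and 5.21, 9.84 and 9.47, and 6.37 and 6.34 CPM on days 0, 2, 4 and 7, and its TKO pairs 3.73 and 4.07, 2.32 and 2.42, 4.98 and 4.64, and 3.13 and 2.78 CPM. The genotypes did not overlap on any day, with log2 fold changes of -1.20, -1.06, -1.004 and -1.10 (SE 0.17 to 0.18, edgeR adjusted p = 0.000884, 0.00269, 0.00067 and 0.000245).

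The assembly factors of complex I moved in different directions. Ndufaf3, which acts early in assembly with Ndufaf4, had 10.5 and 8.69, 12.7 and 14.8, 15.9 and 15.5, and 13.1 and 13.1 CPM in WT cells on the 4 days. TKO cells had 10.6 and 9.12, 10.1 and 8.33, 8.86 and 8.51, and 7.47 and 7.82 CPM. The genotypes overlapped on day 0 and not afterwards, with called differences of -0.58 on day 2, -0.86 ± 0.13 on day 4 (edgeR adjusted p = 0.000322) and -0.77 ± 0.13 on day 7 (adjusted p = 0.000413). Its partner Ndufaf4 had 41.3 and 41.8 CPM in WT day 7 libraries, and 62.5 and 58.9 CPM in those of TKO, the highest of its 16 values. Ndufaf4 was thus higher in TKO cells, by 0.55 ± 0.12 (edgeR adjusted p = 0.00199), and had risen there from 31.3 and 31.7 CPM on day 0 (0.95 ± 0.12, adjusted p = 8.28e-06). Ndufaf7, another assembly factor of complex I, was lower in TKO cells on each day, by between -0.36 and -0.58.

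Restricted isoforms of complex IV are described beside their widely expressed partners, and the difference between partners was not tested. Cox7b2 lies at chr5:71442824-71548205 on the minus strand (GRCm38 and the gene models of GENCODE vM21, as are all gene positions) and encodes a form of subunit 7b known from testis. Its WT pairs were 4.08 and 3.22, 1.81 and 3.04, 0.241 and 0.0627, and 0.0241 and 0 CPM on days 0, 2, 4 and 7. The TKO pairs were 1.62 and 1.53, 1.97 and 1.88, 2.38 and 2.94, and 7.30 and 7.55 CPM. WT cells thus went down to 1 count in 2 libraries while TKO cells went up, and the genotypes did not overlap on days 0, 4 and 7. On day 4 the TKO against WT change was 4.04 ± 0.41 (edgeR adjusted p = 1.16e-05). On day 7 the 528 counts of TKO against 1 count of WT cells gave a ratio of 616, with a 95% counting interval of 110 to 24370 (edgeR adjusted p = 8.88e-08). The WT decline from day 0 to day 7 was from 279 counts to 1, a ratio of 301 (53.6 to 11940), and the TKO rise was 2.23 ± 0.32 (adjusted p = 2.67e-05). On day 0 Cox7b2 was lower in TKO cells, at -1.21 ± 0.32 (adjusted p = 0.0252), a call that was lost without WT day 0 replicate 1.

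The common isoform Cox7b (chrX:106015700-106022450, plus strand), named here after its values were seen, as are the other common partners, had 209 and 150.4 CPM in WT day 0 and 107 and 101 CPM in WT day 7 libraries. TKO cells had 143 and 140.3 CPM on day 0, and 87.2 and 86.3 CPM on day 7. Both genotypes ended lower, with changes of -0.79 ± 0.13 and -0.71 ± 0.13, or -0.46 and -0.44 with the length-trend offset. Per unit of length Cox7b2 reached 36.0 ± 1.1 TPM in TKO day 7 cells beside 194 ± 12 TPM of Cox7b, and 0.0522 ± 0.074 TPM beside 211 ± 9.2 TPM in WT day 7 cells.

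Cox6b2 (chr7:4751792-4753094, minus strand), the testis form of subunit 6b, was abundant in all groups. WT cells had 97.9 and 74.5, 30.6 and 32.7, 49.7 and 40.3, and 33.4 and 34.4 CPM, and TKO cells 64.0 and 62.7, 34.9 and 37.2, 52.5 and 50.6, and 49.5 and 46.8 CPM. TKO cells were below WT on day 0 and above WT on each later day, without overlap, and the difference was called on day 0 (-0.44 ± 0.12, edgeR adjusted p = 0.0265) and on day 7 (0.51 ± 0.12, adjusted p = 0.00395). The day 0 call was lost without WT day 0 replicate 1 (-0.24, adjusted p = 0.202). From day 0 to day 7 it fell in WT cells, by -1.35 ± 0.12 (-1.13 without that library and -0.81 with the length-trend offset). In TKO cells the change was -0.40 ± 0.12, which the offset turned to 0.21 (adjusted p = 0.0589). Its partner Cox6b1 (chr7:30616861-30626151, minus strand) was lower in TKO day 7 cells, at 105 and 101 CPM against 144 and 141 CPM. Cox6b1 fell from day 0 in both genotypes, by -0.63 ± 0.13 in WT and by -0.83 ± 0.13 in TKO cells, or by -0.10 (not called) and -0.24 with the offset. On day 7 Cox6b2 and Cox6b1 stood at 162 ± 5.8 and 656 ± 11 TPM in WT cells, and at 252 ± 8.2 and 531 ± 11 TPM in TKO cells.

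Cox8c, a testis form of subunit 8, was near its detection limit. Its estimated counts in WT cells were 1 and 2, 10 and 15, 0 and 8, and 0 and 0 on days 0, 2, 4 and 7. TKO cells had 0 and 0, 8 and 12, 12 and 12, and 15 and 20 counts. On day 7 the TKO level was at least 13.6-fold higher, against a floor of 3 counts over the WT group (edgeR adjusted p = 0.00215). Within TKO cells day 7 was at least 11.45-fold higher than day 0. The muscle forms Cox6a2 and Cox4i2 were not called between genotypes on any day. Cox4i2 had 1 to 14 and Cox6a2 0 to 18 estimated counts per library.

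Cox7a1, the striated muscle form of subunit 7a (chr7:30184144-30186078, plus strand), was lower in TKO cells on day 7. WT cells had 31.2 and 20.8, 2.17 and 3.42, 1.86 and 2.32, and 3.67 and 3.38 CPM on the 4 days. TKO cells had 21.7 and 22.7, 2.43 and 2.23, 2.00 and 1.24, and 0.632 and 0.496 CPM. It fell early in both genotypes, and on day 7 both TKO libraries were far below both WT libraries, at -2.64 ± 0.32 (edgeR adjusted p = 2.27e-05). The change from day 0 to day 7 was -2.88 ± 0.25 in WT (-2.56 without WT day 0 replicate 1) and -5.29 ± 0.31 in TKO cells. The partner Cox7a2 had 101 and 95.6 CPM in WT and 125 and 114 CPM in TKO day 7 libraries, a difference that was not called (0.28 ± 0.16, adjusted p = 0.179, but called at 0.50 with the length-trend offset).

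Ndufa4l2 encodes a relative of Ndufa4, a subunit first assigned to complex I and later to complex IV, and is known as a hypoxia-induced gene. Its WT pairs were 2.95 and 2.06, 2.15 and 2.65, 3.69 and 6.63, and 0.531 and 0.579 CPM, and its TKO pairs 0.911 and 0.895, 1.86 and 2.02, 4.88 and 5.13, and 1.95 and 2.98 CPM. TKO cells were lower on day 0 (-1.47 ± 0.32, edgeR adjusted p = 0.00971) and higher on day 7 (2.15 ± 0.33, adjusted p = 0.00017), without overlap on either day. Without WT day 0 replicate 1 the day 0 call was lost. Ndufa4 (chr6:11900292-11907497, minus strand) had 139 and 145 CPM in WT and 223 and 196 CPM in TKO day 4 libraries, a rise of 0.56 ± 0.15 (edgeR adjusted p = 0.0165). On day 7 it had 144 and 134 CPM in WT and 199.6 and 176 CPM in TKO libraries (0.43 ± 0.15, adjusted p = 0.0362), a call that was lost when any of the 4 libraries of that day was left out.

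**Figure D5:**
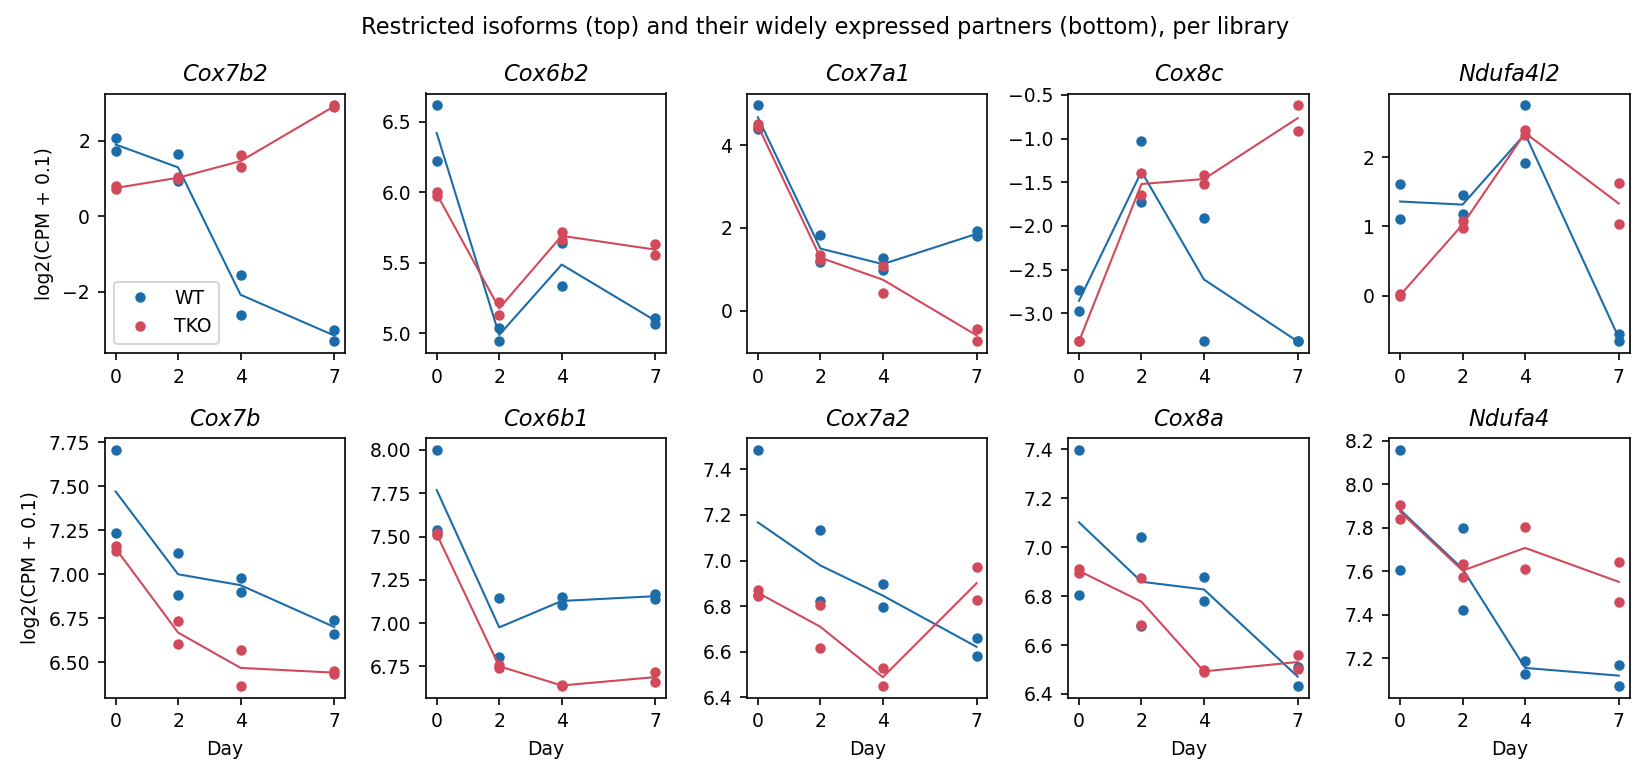
Log2 CPM (with a small constant added, as labelled) of 5 restricted genes (top row) and their widely expressed partners (bottom row) against day, with WT in blue and TKO in red. Points are libraries and lines join the means of 2. Cox7b2 separates the genotypes from day 4 on, reaching 7.30 and 7.55 CPM in TKO day 7 libraries, while Cox7b declines in both.

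Whether the gap between TKO and WT cells had changed since day 0 was tested as an interaction. By day 2, 1 nuclear gene was higher and 0 lower, with 7.56% of all genes called, 5.76% higher and 1.8% lower. By day 4, 3 were higher and 1 lower, with 16.3% of all genes called (11.6% and 4.67%). By day 7, 6 were higher and 3 lower, with 27.1% called (15.8% and 11.3%). The rises by day 7 were Cox7b2, Cox8c, Cox6b2, Ndufa4l2, Ndufaf4 and Cox7a2l, and the falls were Cox7a1, Ndufv3 and Ndufaf3. The median over nuclear genes was 0.02 on day 7. Without WT day 0 replicate 1 there were 5 higher and 24 lower, 8 of them shared with the first set of calls. Leaving out WT day 0 replicate 2 instead gave 20 higher and 3 lower. The single call by day 2 was lost when any 1 of the other 6 libraries was left out, and 10 and 6 were called without WT day 0 replicate 1 and 2, and the 4 by day 4 became 2 without either TKO day 0 library or without TKO day 4 replicate 1.

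On day 7, 4 of 13 mitochondrial genes (30.8%) were higher in TKO cells and 0 lower, against 23.4% and 21.1% of all genes, with a median over the 13 of 0.24. They were mt-Nd1 (0.32 ± 0.09), mt-Nd2 (0.33 ± 0.08), mt-Nd4 (0.26 ± 0.07) and mt-Cytb (0.36 ± 0.08), with edgeR adjusted p = 0.0111, 0.00293, 0.00985 and 0.00365. mt-Cytb had 2510 and 2228 CPM in WT and 3047 and 3016 CPM in TKO day 7 libraries, and mt-Nd2 had 929.6 and 861 CPM against 1135 and 1123 CPM. For both genes the TKO libraries lay above the WT libraries, as in 10 of the 13 genes (76.9%), against 39.5% of all genes tested. Without WT day 7 replicate 2 none of the 4 stayed called (mt-Cytb at 0.24, edgeR adjusted p = 0.086), without TKO day 7 replicate 1 there were 2, and with the length-trend offset 9 were higher. By day 7 the interaction was called for mt-Co1 (0.36 ± 0.13, adjusted p = 0.0492) and mt-Nd4 (0.29 ± 0.10, adjusted p = 0.0489), and both calls were lost when any 1 library of day 7 or any 1 TKO library of day 0 was left out. By days 2 and 4 it was called for none with edgeR (3 and 1 with an unadjusted p under 0.05, and 1 each with DESeq2).

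The promoters of 5 of these isoforms are shown because the genotypes are taken to differ in DNA methyltransferases, which act on CpG. Sequences and gene starts are from RefSeq (GRCm38.p6), in which 76 of the 94 nuclear symbols were matched. Each line gives the 150 bases before the RefSeq start, 5′ to 3′ on the gene's strand, with each CpG in capitals. The window of Cox7b2 is chr5:71548206-71548355, that of Cox7b chrX:106015550-106015699, that of Cox6b2 chr7:4753095-4753244, that of Cox6b1 chr7:30626115-30626264 and that of Cox7a1 chr7:30184021-30184170. For Cox6b1 and Cox7a1 the RefSeq start lies inside the GENCODE gene model, so that the window overlaps its first bases.
Cox7b2: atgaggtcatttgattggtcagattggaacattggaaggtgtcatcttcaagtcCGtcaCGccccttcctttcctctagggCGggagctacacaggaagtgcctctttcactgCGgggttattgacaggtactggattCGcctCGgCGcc
Cox7b: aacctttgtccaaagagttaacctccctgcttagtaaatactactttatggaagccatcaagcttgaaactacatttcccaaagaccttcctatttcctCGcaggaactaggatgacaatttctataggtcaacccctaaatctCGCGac
Cox6b2: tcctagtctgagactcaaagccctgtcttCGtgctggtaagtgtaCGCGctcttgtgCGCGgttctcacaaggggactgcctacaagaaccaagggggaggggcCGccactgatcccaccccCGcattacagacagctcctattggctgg
Cox6b1: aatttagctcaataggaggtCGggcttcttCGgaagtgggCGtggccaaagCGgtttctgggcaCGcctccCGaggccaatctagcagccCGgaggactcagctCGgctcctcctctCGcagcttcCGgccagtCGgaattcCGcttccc
Cox7a1: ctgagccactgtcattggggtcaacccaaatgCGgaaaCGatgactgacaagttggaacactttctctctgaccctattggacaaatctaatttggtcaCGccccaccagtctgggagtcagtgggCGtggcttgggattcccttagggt
The restricted Cox7b2, Cox6b2 and Cox7a1 held 7, 7 and 4 CpG in these windows, the common Cox7b held 3 and Cox6b1 held 12. Methylation was not analysed here.

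Over the 300 bases from 250 before to 50 after the start, the 81 promoters of matched genes had a median of 20 CpG, against 13 over all 21263 promoters of protein-coding genes. The letters GCGCANGCG, the core of sites of NRF1, a known activator of respiratory chain genes, occurred on either strand in 23 of the 81 promoters (28.4%) and in 8.58% of all. AANATGGCG, found in YY1 sites, occurred in 13.6% against 3.12%, CCGGAAGT, found in ETS sites, in 6.17% against 5.15%, and TGACGTCA, the cyclic AMP response element, in 4.94% against 2.23%. Each of these strings holds CpG, and the shares over all promoters are not matched for CpG content. Some genes, such as Ndufa5, are counted with more than 1 promoter. A pair of overlapping NRF1 matches, 1 on each strand and in capitals, begins 113 bases before the start of Ndufaf4 (window chr4:24897933-24898082, plus strand).
Ndufaf4: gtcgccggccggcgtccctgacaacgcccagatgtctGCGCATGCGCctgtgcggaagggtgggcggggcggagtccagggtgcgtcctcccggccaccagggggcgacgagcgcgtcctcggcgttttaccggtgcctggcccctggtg
A match is a description of letters and no evidence of binding.

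Lists of other mitochondrial genes are to be read against all genes, of which 32.9% rose and 33.2% fell by day 7 in WT cells, 36.1% rose and 31.7% fell in TKO cells, and 23.4% were higher and 21.1% lower in TKO than in WT day 7 cells. Of 21 genes of the citric acid cycle and pyruvate entry, 14 fell and 3 rose from day 0 to day 7 in each genotype, and 6 were lower and 1 higher in TKO day 7 cells. Pdk1, the kinase that inhibits pyruvate dehydrogenase, had 122 and 130 CPM in WT and 34.0 and 34.0 CPM in TKO day 7 libraries (-1.89 ± 0.10, edgeR adjusted p = 1.45e-08). Of 30 assembly factors of complexes II to V, 13 fell and 4 rose in WT and 13 fell and 5 rose in TKO cells, with 8 lower and 1 higher in TKO day 7 cells. Among 18 electron carriers and coupling proteins 11 fell and 4 rose in WT cells, and 10 fell and 3 rose in TKO cells. Of 78 mitochondrial ribosomal proteins 29 (37.2%) fell and 7 rose in WT cells, 36 (46.2%) fell and 4 rose in TKO cells, and 26 (33.3%) were lower and 4 higher in TKO against WT cells on day 7. The counts of these and the following lists are given only with both WT day 0 libraries and without the length-trend offset. The summed level of the ribosomal list ranged from 3442 to 4541 CPM in WT day 0 libraries, and from 3395 to 3412 CPM in those of WT day 7.

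Of the 18 genes that copy, transcribe and process mitochondrial DNA, 6 (33.3%, near the share of all genes) were higher and 4 lower in WT and 4 higher and 5 lower in TKO cells by day 7, and 2 were higher and 7 lower in TKO against WT cells. Polg2, the accessory subunit of the mitochondrial DNA polymerase, had 11.04 and 10.4 CPM in WT and 5.74 and 6.30 CPM in TKO day 7 libraries (-0.83 ± 0.12, edgeR adjusted p = 0.000113). Of 11 regulators of mitochondrial biogenesis 5 rose and 3 fell in WT cells, and 6 rose and 2 fell in TKO cells. The summed level of these regulators was lower in TKO day 7 libraries (837 to 875 CPM) than in WT day 7 libraries (905 to 920 CPM). Against the direction of that sum, Nrf1 itself was higher in TKO day 7 cells by 0.34 ± 0.06 (edgeR adjusted p = 0.000783).

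A last list held 7 testis forms of mitochondrial proteins, among them Cox7b2, Cox6b2 and Cox8c. It was drawn up with results of these libraries known and is no independent evidence of a direction. All 6 that were tested were higher in TKO day 7 cells, and 5 of 6 had fallen from day 0 in WT cells. Slc25a31, the testis ATP carrier, had 0 counts in both WT and 1096 counts in both TKO day 7 libraries together, at least 426-fold more against the floor of 3 counts (edgeR adjusted p = 9.13e-09). Pdha2, the testis form of pyruvate dehydrogenase E1 alpha, had 909 counts against 2, a ratio of 530 with a 95% counting interval of 146 to 4383. Cyct, testis cytochrome c, had 0.0724 and 0.0482 CPM in WT and 0.920 and 1.68 CPM in TKO day 7 libraries, with no overlap (4.37 ± 0.52, edgeR adjusted p = 1.78e-05).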

How the data were processed

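Poly-A RNA was measured by stranded sequencing in 16 libraries. The deposited tables hold kallisto's estimated counts per transcript, which per the file headers are expected counts with no scaling for depth. Per the file headers, 2 more deposited columns give TPM, which corrects for length and depth, and the effective length, a measure of other kind in bases. The submitters' processing notes name kallisto without a version, and the builds GRCm38 and mm10.

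Of 119414 transcripts 116728 (97.8%) matched GENCODE vM21 by identifier. Their counts were summed per gene and rounded, and unmatched transcripts held 0.95% to 1.05% of a library. The filter of filterByExpr kept 18489 genes, and these entered a robust quasi-likelihood fit of edgeR 4.0.16 (R 4.3.3) with TMM scaling on all 16 libraries, which left 8 residual degrees of freedom. Normalisation factors lay between 0.905 and 1.079 and the biological coefficient of variation was 0.111. Benjamini-Hochberg adjustment ran over all genes tested, with a threshold of 0.05, in 13 comparisons (TKO against WT per day, days against day 0, and interactions). DESeq2 1.42.0 was an alternative, and the fit was tested on simulated data. Standard errors are of the log2 fold change, and ± beside a level is the SD of 2 libraries. Counting intervals (95%, exact binomial) and floors cover counting error only.

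The replicate numbers were not used as a block, since the labels do not tie them to a day or culture. The genes and lists were chosen with earlier results of these data known. The text names the mitochondrial genes, the Sdh genes, the restricted complex IV isoforms, up to 3 called rises and 3 called falls of lowest adjusted p in each other role, and up to 2 per direction from each list. The values of 1 gene are not reported here. Promoters came from RefSeq (GRCm38.p6) and motifs were searched on both strands as spelled.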

Additional observations from a re-analysis of the deposited data

Results flagged for a closer look

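Each result here is a nuclear or mitochondrial gene for which the TKO against WT difference changed between day 0 and a later day by the interaction test (edgeR, adjusted p under 0.05). Values are changes of the log2 difference, and every one of them rests in part on the WT day 0 pair, whose libraries differ with transcript length.

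By day 2 the change was 0.63 for Cox6b2. By day 4 it was 0.64 for Cox6b2, 1.43 for Ndufa4l2, 5.25 for Cox7b2 and -0.90 for Ndufaf3. By day 7 the higher values were 0.95 for Cox6b2, 3.61 for Ndufa4l2, 0.70 for Ndufaf4, 0.49 for Cox7a2l, 0.36 for mt-Co1 and 0.29 for mt-Nd4. The lower values by day 7 were -1.14 for Ndufv3, -0.81 for Ndufaf3 and -2.41 for Cox7a1. The fitted day 7 values of 10.15 for Cox7b2 and 11.17 for Cox8c come from groups with 0 or 1 count, depend on the prior count and are no bounds.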

How the results depend on the processing

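Numbers in this paragraph are nuclear genes called in either direction, unless the mitochondrial genes are named. The length-trend offset was chosen after seeing the data. With it the genotype comparisons gave 15 on day 2, 55 on day 4 and 53 on day 7, WT day 2 against day 0 gave 63, and the interactions gave 9, 27 and 28 by days 2, 4 and 7. On the mitochondrial side it gave 9 for the genotypes on day 7, 7 for WT day 7 against day 0, and 1 for the interaction by day 4. With only the compared libraries in the fit, the genotype counts were 0 on day 0, 15 on day 2 and 66 on day 7, WT day 2 gave 25, TKO day 2 gave 76, and the interactions gave 0 by day 2 and 2 by day 4. Mitochondrial counts were then 0 on day 0 and 9 on day 7 between genotypes, 5 for WT day 4 and 0 for the interaction by day 7. The deposited effective lengths as offset gave 7 on day 0 and 2 on day 2 between genotypes, and for mitochondrial genes 0 on day 2 and 0 for the interaction by day 7. For the genotypes on day 2, DESeq2 gave 15, no filter 9, a stricter filter (5 CPM in 2 libraries) 12, and protein-coding genes alone 9. For the interaction by day 2, DESeq2 and the stricter filter gave 2 each. Mitochondrial counts with DESeq2 were 2 on day 0 and 2 on day 2 between genotypes, and 1, 1 and 4 for the interactions by days 2, 4 and 7. For the last of these, no filter gave 0 and the stricter filter 5. The cause was not tested in any of these cases.

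The labels do not say whether WT and TKO libraries with the same replicate number shared a culture or batch, and the following correlations cannot settle it. The deviations of same-numbered libraries correlated across 11202 genes at 0.0519, -0.11, -0.103 and -0.00254 on days 0, 2, 4 and 7. With the replicate number as a block, mitochondrial calls between genotypes on day 0 and in the interaction by day 7 went to 0. The nuclear counts with the block stayed within 1.5 times: 9, 3, 17 and 26 between genotypes, and 1, 4 and 8 for the interactions.

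Leaving out 1 library at a time gave 2 to 71, 1 to 24, 8 to 11 and 20 to 22 nuclear calls between genotypes on days 0, 2, 4 and 7. For days 2, 4 and 7 against day 0 the ranges were 28 to 71, 39 to 79 and 46 to 84 in WT cells, and 24 to 31, 41 to 44 and 54 to 63 in TKO cells. The interactions ranged over 0 to 10, 2 to 19 and 8 to 29. Mitochondrial calls ranged over 0 to 3, 0 to 2, 0 and 0 to 4 between genotypes, over 7 to 9, 8 to 12 and 9 to 13 in WT cells, over 5 to 7, 10 and 8 in TKO cells, and over 0 to 1, 0 to 1 and 0 to 4 for the interactions. The largest counts came from leaving out WT day 0 replicate 2, which gave 71 between genotypes on day 0 and 84 for WT day 7. The mitochondrial count of 5 for TKO day 2 came without TKO day 2 replicate 2.

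Of 291 called results for named genes, 283 kept their direction and 194 their call under every alternative that gave them a value (the stricter filter and the fits on only the compared libraries left some genes out). With the length-trend offset 36 results for named genes changed sign where neither the main fit nor the offset fit was called. Where either was called, the offset turned Ndufa4 (0.24) and mt-Nd6 (0.25) between genotypes on day 2, and mt-Nd3 (0.27) on day 7. Against day 0, by day 7, it turned Sdhc (0.049), mt-Nd3 (0.024) and mt-Atp8 (0.24) in WT cells, and Sdhc (0.10), Cox6b2 (0.21), mt-Nd2 (0.032), mt-Nd3 (0.066) and mt-Nd6 (0.054) in TKO cells. Over the libraries left out, mt-Nd4l in WT cells ranged from -0.47 to 0.26 on day 2 and from -0.47 to 0.30 on day 4 against day 0, and mt-Atp8 from -0.25 to 0.24 on day 4, with the low end without WT day 0 replicate 1 and the high end without replicate 2. The interaction of mt-Nd4l by day 7 ranged from -0.49 without replicate 2 to 0.32 without replicate 1.

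Depth limits Cox8c, with 0 to 15 counts in the WT libraries, to bounds and wide ratios.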
